A study of Mus musculus with 15 samples.

Results

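The genes described here lie on mouse chromosome 5 around Kit, in the window from 60 to 80 Mb (build mm9). They are the genes named by array probes whose listed position falls in that window, without Kit, Kdr, Pdgfra, Tlr1 and Tlr6. The rule found 197 genes with 318 probes, of 37074 gene names and 56605 probes on the array. The names were those of the array files, and 122 of the 197 had a symbol in the RefSeq table of a later build, none of them on another chromosome. The samples were mammary tumours that arose spontaneously in MMTV-PyMT mice, where a mammary tumour virus promoter drives the polyoma middle T oncogene mainly in mammary epithelium, so every group carried this transgene. The Wsh group had 7 arrays of tumours from MMTV-PyMT mice of the Wsh background, and the B6 group had 8 arrays of tumours from MMTV-PyMT mice of the B6 background, all taken at 20 weeks of age from mice in specific-pathogen-free housing. No treatment is named. Each array held total RNA of 1 tumour, labelled with Cy3. The labels do not say whether tumours shared a mouse, how the Wsh mice were bred to the B6 background, or for how many generations.

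The Kit W-sh allele is an inversion of a piece of chromosome 5 that runs from the gene Corin to a point upstream of Kit. It leaves the Kit coding sequence whole but separates the gene from upstream regulatory DNA, and adult mice with 2 copies lack mast cells. Genes inside the inverted piece keep their own sequence with their order turned round, while genes at its ends gain new neighbours. The allele arose in mice of another origin than B6, so that DNA linked to it can also carry sequence differences from B6. The ends of the inversion are not in the array files. The window was therefore divided by the probes of Corin and Kit, and the stretch between them is not taken to equal the inverted piece.

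Each probe is a designed DNA of 60 bases that binds copies of 1 transcript, and a probe that covers a variant base can bind less without any change in RNA. The probes below are shown because their differences between Wsh and B6 passed the test or because they are the other probe of such a gene. The lines give the first 30 bases of each, 5′ to 3′ as listed in the array files, with the listed mm9 position and strand of the whole probe.
Fam114a1 A_55_P2728588, chr5:65375859-65375918, plus strand: gctagccacagatatgcatttgttaaaaat
Fam114a1 A_51_P303180, chr5:65432023-65432082, plus strand: caacggacttctatgtcactggccagacca
TC1682181 A_66_P112071, chr5:66608199-66608258, minus strand: actggcaagcacattaatgtattctgaaag
Uchl1 A_55_P2738927, chr5:67078408-67078467, plus strand: acggccctggatgtggtttgtctagtcctt
Atp10d A_55_P2934822, chr5:72620795-72620854, plus strand: ctggatgtgatctatgtagaaataatcgga
Atp10d A_52_P616332, chr5:72689634-72689693, plus strand: tagtgcctagaaattaacttacactagtca
Slain2 A_55_P2717588, chr5:73309539-73309598, plus strand: attcccatttttaaggtaaccagagtgtgt
Slain2 A_51_P379822, chr5:73369889-73369948, plus strand: tagactatgtatgttcagattgacgtaact
Cep135 A_51_P227929, chr5:77069985-77073680, plus strand: gactcctgatcatataaatgcatagttacc
Cep135 A_55_P1959515, chr5:77075386-77075445, plus strand: ggcgacttactctcccactatgtgtataat
The first Cep135 probe spans 3696 bases of the genome with its 60 bases, so it crosses at least 1 splice junction. No exon or UTR annotation of mm9 was used, and the strain sequence under these probes was not analysed here.

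A level is the log2 signal of a probe over the 75th percentile of its array, and differences are Wsh minus B6 on that log2 scale each with its standard error (SE) from limma. A probe was tested if 7 or more of the 15 arrays had it well above background, and it passed at a limma adjusted p under 0.05, adjusted over all 34349 tested probes of the array. Of the 318 probes, 174 probes of 104 genes were tested, 149 were well above background on all 15 arrays and 68 on none. The other 93 genes had no tested probe, and for 41 of these no probe rose well above background on any array. The 75th percentile of the signal ran from 3550 to 4582 in Wsh and from 3328 to 6406 in B6, and the share of spots well above background from 58.8% to 70.8% in Wsh and from 55.7% to 73.4% in B6. Genes of mammary epithelium, the labelled tissue, were measured (10 of 10), 9 lay below 0 and 1 above with a median of -0.12, and 0 passed in limma or had an unadjusted p under 0.05. Skeletal muscle genes were high on 4 Wsh arrays (replicates 1, 3, 4 and 5) and on 1 B6 array (replicate 4), and the mean of that list ran from -2.40 to 6.02 in Wsh and from -2.34 to 2.91 in B6, while all 10 measured members lay above 0 and 0 of them passed in limma (3 at an unadjusted p under 0.05). The arrays lay on 2 slides, slide 1 with 4 Wsh and 4 B6 arrays and slide 2 with 3 Wsh and 4 B6 arrays. Of the genes that the rule leaves out, Kit had differences of -2.65, -2.43 and -2.40 with its 3 probes, Tlr6 had 1.68, and Tlr1 had -1.54, all of which passed. The other Tlr1 probe (-1.58, limma adjusted p = 0.0524), Kdr (0.36) and Pdgfra (0.05 and -0.16) did not pass.

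Some mast cell markers differed along with the groups. The mean of that list ran from -1.97 to -1.09 in Wsh and from -0.68 to 3.17 in B6, without overlap, and 5 of its 6 measured members lay below 0. Mcpt4, a mast cell protease, was well above background on 0 of 7 Wsh arrays and 8 of 8 B6 arrays. Against the detection floor of the Wsh arrays its signal was lower by at least 24.5-fold (limma adjusted p = 0.000458). Cma1, another such protease, passed as well (limma adjusted p = 0.00545), being well above background on 1 Wsh and 7 B6 arrays. Cpa3 (0 Wsh and 7 B6 arrays) did not pass (limma adjusted p = 0.0663). Mcpt4 and Cpa3 entered the test through B6 alone, where they are high. For Cma1 the 7 B6 arrays met the filter by themselves, and most of its Wsh values were not well above background. The list mean and the calls of Mcpt4 and Cma1 thus follow in part from the filter. Tpsb2 (-0.91), Fcer1a (-0.26) and Hdc (0.38) were well above background in both groups, overlapped between them and did not pass. The part of the mast cell difference in the results on Uchl1 and the other genes below was not tested.

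In Wsh tumours, 7 probes of these genes had lower signal and 2 had higher signal than in B6 tumours. Lower were single probes of Uchl1, Gabra4, Cep135, Rasl11b, Slain2, Fam114a1 and the unnamed transcript TC1682181, and higher were single probes of Atp10d and the unnamed transcript AK080115. The 9 probes made up 5.17% of the 174 tested, against 0.332% of all probes on the array (41 higher, 0.119%, and 73 lower, 0.213%). For 6 of the 174 probes the 2 groups had no value in common range, namely those of TC1682181, Uchl1, Atp10d, AK080115, Slain2 and Cep135, against 0.399% of all probes. At an unadjusted p under 0.05 there were 47 of the 174 and 3822 of all. The probe of TC1682181 entered the test through B6 alone, where it is high, so its call and lack of overlap follow in part from the filter. The same holds for the probe of AK080115. Its Wsh arrays, where it is high, met the filter, and its B6 arrays alone would not have met it. Over probes well above background on all 15 arrays, 9 of 149 member probes passed (6.04%), against 0.359% of all, and 7 of these 9 were among those above. Without overlap were 4 of the 149, against 0.399% of all probes under the wider filter. The share of all probes under the filter on 15 arrays was not computed. Probes of 1 gene share a transcript and are not independent of each other.

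**Figure D1:**
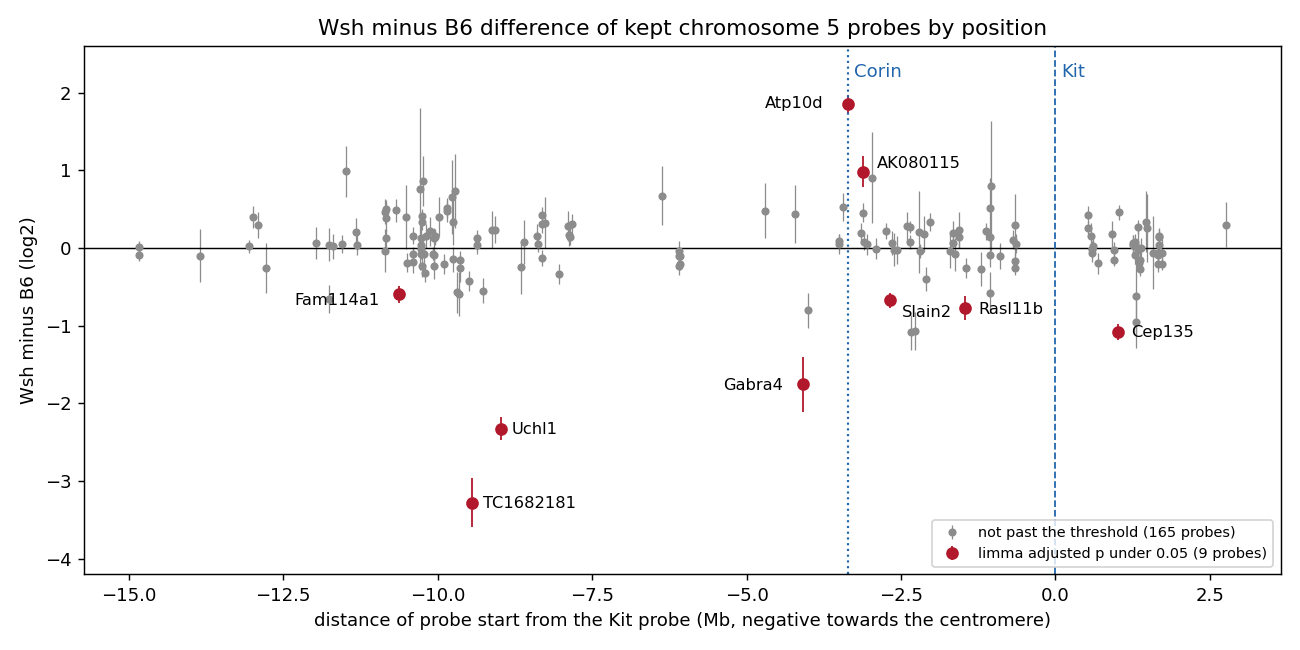
Wsh minus B6 difference (log2, y axis) of the 174 tested probes by the distance of their start from the Kit probe in Mb (x axis), with SE bars. Red points are the 9 probes past the threshold, 7 below 0 and 2 above, and grey points the other 165, most of which lie close to 0; the dotted and dashed lines stand at Corin and Kit.

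The probes that passed were spread along the window. The first and the last lay 11.638 Mb apart, in Fam114a1 and Cep135. Between them 9 of 127 tested probes passed (7.09%), while 0 of 21 tested probes before the first and 0 of 26 after the last did. Unadjusted p-values were under 0.05 for 6 of those 21 and 6 of those 26, against 3822 of all 34349 tested probes. Both end stretches thus had a higher share than the whole array. The ends of this span were set by the probes themselves, so these counts are a description. From 60 Mb to Corin, 5 of 93 probes passed (5.38%). Between Corin and Kit 3 of 43 passed (6.98%), and beyond Kit 1 of 38 (2.63%). On the remainder of chromosome 5, 3 of 1899 probes passed (0.158%), in Mfsd7a, Gbas and Gusb. Most tested probes of the window moved little. The difference was within 0.25 of 0 for 58.6% of them, against 72.3% of all probes, and the median absolute difference was 0.20 against 0.14. The median difference was 0.04, with 98 probes above 0 and 76 below, against a median of 0.01 over all probes.

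Fam114a1, the gene of the first probe that passed, had 2 tested probes that lay on opposite sides of 0. The probe A_51_P303180 had a lowest, median and highest level of -0.72, -0.44 and -0.05 in Wsh and of -0.12, 0.18 and 0.38 in B6. The groups met at 1 point, where the highest Wsh array stood above the lowest B6 array. The difference was -0.60 (SE 0.11, limma adjusted p = 0.0353), which is 1.51-fold lower in Wsh. The other probe, 56.2 kb away, had a difference of 0.48 (SE 0.15, limma adjusted p = 0.210).

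TC1682181 has no gene name in the array files. Its probe was well above background on 0 of 7 Wsh arrays and on 8 of 8 B6 arrays. The level ran from -7.55 through a median of -7.03 to -5.84 in Wsh, and from -4.43 through -3.85 to -2.29 in B6, so every Wsh array lay below every B6 array. Since the Wsh values were not well above background, the signal was at least 3.08-fold lower in Wsh, and the fitted difference of -3.28 (SE 0.31, limma adjusted p = 4.85e-05) rests on unmeasured values. For that bound each Wsh array was given its detection floor, the dimmest signal it measured well above background, or the value of this probe if higher, and the 7 values were averaged. The nearest tested probe, 42.1 kb before it in LOC102635521, had -0.43 (SE 0.13, limma adjusted p = 0.202).

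Uchl1 encodes a ubiquitin C-terminal hydrolase, an enzyme that releases ubiquitin from small adducts and is abundant in neurons. Its tested probe had a level of -4.03, -3.58 and -3.37 (lowest, median, highest) in Wsh and of -1.92, -1.36 and -0.89 in B6. The groups were far apart, with no Wsh array near the B6 values. The difference was -2.33 (SE 0.15, limma adjusted p = 1.19e-06), a 5.02-fold lower signal in Wsh. The probe lies 8.97 Mb from that of Kit. A second Uchl1 probe was well above background on 1 Wsh array and 1 B6 array and was not tested, so a change of level cannot be told apart from a variant under the single tested probe. Of the 5 measured genes for this enzyme family, Uchl1 was the 1 that passed, and Uchl3, Uchl4, Uchl5 and Bap1 had differences of 0.04, 0.01, -0.02 and 0.06. Nerve and Schwann cell markers had a list mean of -0.38 to 0.56 in Wsh and -0.63 to 0.54 in B6, with 5 of 10 measured members below 0 and none past the threshold.

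Gabra4, Gabra2, Gabrb1 and Gabrg1 form a cluster of genes for subunits of the GABA-A receptor, the chloride channel opened by the inhibitory transmitter GABA. Gabra4 was the 1 of the 4 with a call. Its probe A_51_P393124 had a level of -2.57, -2.18 and -0.14 in Wsh and of -0.68, 0.00 and 0.89 in B6. The groups overlapped through Wsh replicate 7, the highest Wsh array, and the others lay below every B6 array. The difference was -1.75 (SE 0.35, limma adjusted p = 0.0484), which is 3.37-fold lower. The other probe had -0.80 (SE 0.23, limma adjusted p = 0.183), in the same direction. Without Wsh replicate 7 the difference was -2.02 (adjusted p = 0.00814), and without any 1 of the other 14 arrays Gabra4 no longer passed, with adjusted p up to 0.108. Gabra2 was measured with 1 of its 4 probes, at 0.48 (SE 0.36, limma adjusted p = 0.663). The 1 probe of Gabrb1 was well above background on 0 of 15 arrays, and the 5 probes of Gabrg1 were so on at most 2 arrays each. Over the GABA-A receptor genes of the genome, 9 of 19 were measured, 5 lay above 0 and 4 below, and 0 passed higher and 1 lower. The median difference was 0.13, against -0.01 over 22344 genes with 1 probe each (0.336% of which passed).

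Atp10d, beside Corin, encodes a P4-ATPase, one of the flippases that move lipids between the leaflets of a membrane. Its probe A_52_P616332 had a level of -0.44, -0.21 and 0.11 in Wsh and of -2.38, -2.01 and -1.63 in B6, without overlap and with little spread on either side. The difference was 1.85 (SE 0.12, limma adjusted p = 1.19e-06), or 3.60-fold higher in Wsh. This probe lies 1.65 kb before the first probe of Corin. The other Atp10d probe, 68.8 kb farther from Corin, had a level of -1.26, -0.89 and -0.60 in Wsh and of -2.25, -1.32 and -0.81 in B6, and a difference of 0.53 (SE 0.18, limma adjusted p = 0.268). Both probes were higher in Wsh on average, by unequal amounts. Of the flippase genes and their partner subunits, 15 of 17 were measured, 1 passed higher (Atp10d) and 0 lower, with a median of -0.04. Atp8a1, the other flippase gene of the window, had -0.33, 0.29, 0.16 and 0.14 with its 4 probes, none of which passed.

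Corin, the serine protease that activates atrial natriuretic peptide and is known mainly from the heart, was not well above background with either probe on 7 of 7 Wsh arrays and 8 of 8 B6 arrays. The nearest genes with a tested probe before it were Atp10d, Commd8 and Gabra4. Commd8, which encodes a COMM domain protein, had 0.05 and 0.08 with its 2 probes. On the other side of Corin, AK080115 had a level of -4.54, -4.38 and -3.82 in Wsh and of -6.14, -5.20 and -4.72 in B6, with no overlap. It was well above background on 7 Wsh arrays and 4 B6 arrays, so its call and lack of overlap follow in part from the filter. The fitted difference of 0.98 (limma adjusted p = 0.0455) rests in part on B6 values not well above background. Its probe lies between probes of Nfxl1 on the same strand, and the 3 probes of Nfxl1, a gene for a zinc finger protein, had 0.19, 0.45 and 0.08, none past the threshold. With normexp background correction in place of the processed signal, AK080115 no longer passed, at 0.42 (limma adjusted p = 0.172), and in the deposited values it had 0.50 (adjusted p = 0.0323). Cnga1, which encodes a channel subunit of rod photoreceptors, had 0.05 with the 1 tested probe of its 3.

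Slain2 and Rasl11b were the genes with lower probes between Corin and Kit. Slain2 encodes a protein of growing microtubule ends. Its probe A_51_P379822 had a level of -0.39, -0.04 and 0.23 in Wsh and of 0.44, 0.63 and 0.82 in B6, without overlap, and a difference of -0.68 (SE 0.10, limma adjusted p = 0.00545), which is 1.60-fold lower. The other Slain2 probe lay above 0, at 0.22 (SE 0.10, limma adjusted p = 0.454). Rasl11b, which encodes a small GTPase of the Ras type, had 1 probe, with a level of -1.79, -1.43 and -0.86 in Wsh and of -1.07, -0.57 and -0.04 in B6. The groups overlapped slightly, and the difference was -0.78 (SE 0.15, limma adjusted p = 0.0455), which is 1.71-fold lower.

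Ociad2, a gene for an OCIA domain protein that is named here after its values were seen, stood just outside the threshold. Its level was -1.86, -0.46 and -0.04 in Wsh and -0.15, 0.53 and 0.65 in B6, with a difference of -1.08 (SE 0.22, limma adjusted p = 0.0556). It passed with quantile normalization (adjusted p = 0.0472), scaling by the median (0.0383), normexp correction (0.0451), the deposited values (0.0437), the filter on all 15 arrays (0.0437), trend and robust options (0.0487) and muscle and adipocyte covariates (0.0322), and without Wsh replicate 6 (0.0292). Its neighbour Ociad1 had 0.07 and 0.26, and neither probe passed. On the other side of the threshold, the probe of Gabra4 had the highest adjusted p among those that passed.

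The genes nearest to Kit did not pass. Towards Corin these were a pair of lincRNAs on opposite strands, whose probes start at 75395856 and 75396089, with -0.26 and 0.29, and Chic2, with -0.17 and 0.05. Beyond Kit they included Srd5a3, which encodes a polyprenol reductase of the dolichol pathway, with 0.42 (limma adjusted p = 0.144) and 0.26. The others there were the transcript CB056291 with 0.15, and Tmem165, which encodes a Golgi ion transporter, with -0.02. Next to Tmem165 lies Clock, which encodes the partner of the Arntl protein in the circadian clock. Its 3 tested probes had -0.02, -0.07 and 0.03, with SE of 0.11 to 0.13. Of 20 circadian clock genes 19 were measured, 15 lay below 0 and 4 above, and 0 passed in limma in either direction (3 at an unadjusted p under 0.05), with a median of -0.15. Dbp, an output gene of the clock that is named here after its value was seen, had -1.06 (SE 0.35, limma adjusted p = 0.260).

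Cep135 was the 1 gene beyond Kit that passed. It encodes a protein needed to build centrioles. Its junction probe A_51_P227929 had a level of -4.00, -3.74 and -3.42 in Wsh and of -2.92, -2.67 and -2.41 in B6, without overlap. The difference was -1.08 (SE 0.10, limma adjusted p = 4.85e-05), which is 2.11-fold lower in Wsh. The other probe, 5.40 kb farther along, had a level of -1.75, -1.51 and -1.24 in Wsh and of -2.20, -1.91 and -1.74 in B6. It lay above 0, at 0.46 (SE 0.09, limma adjusted p = 0.0555).

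**Figure D2:**
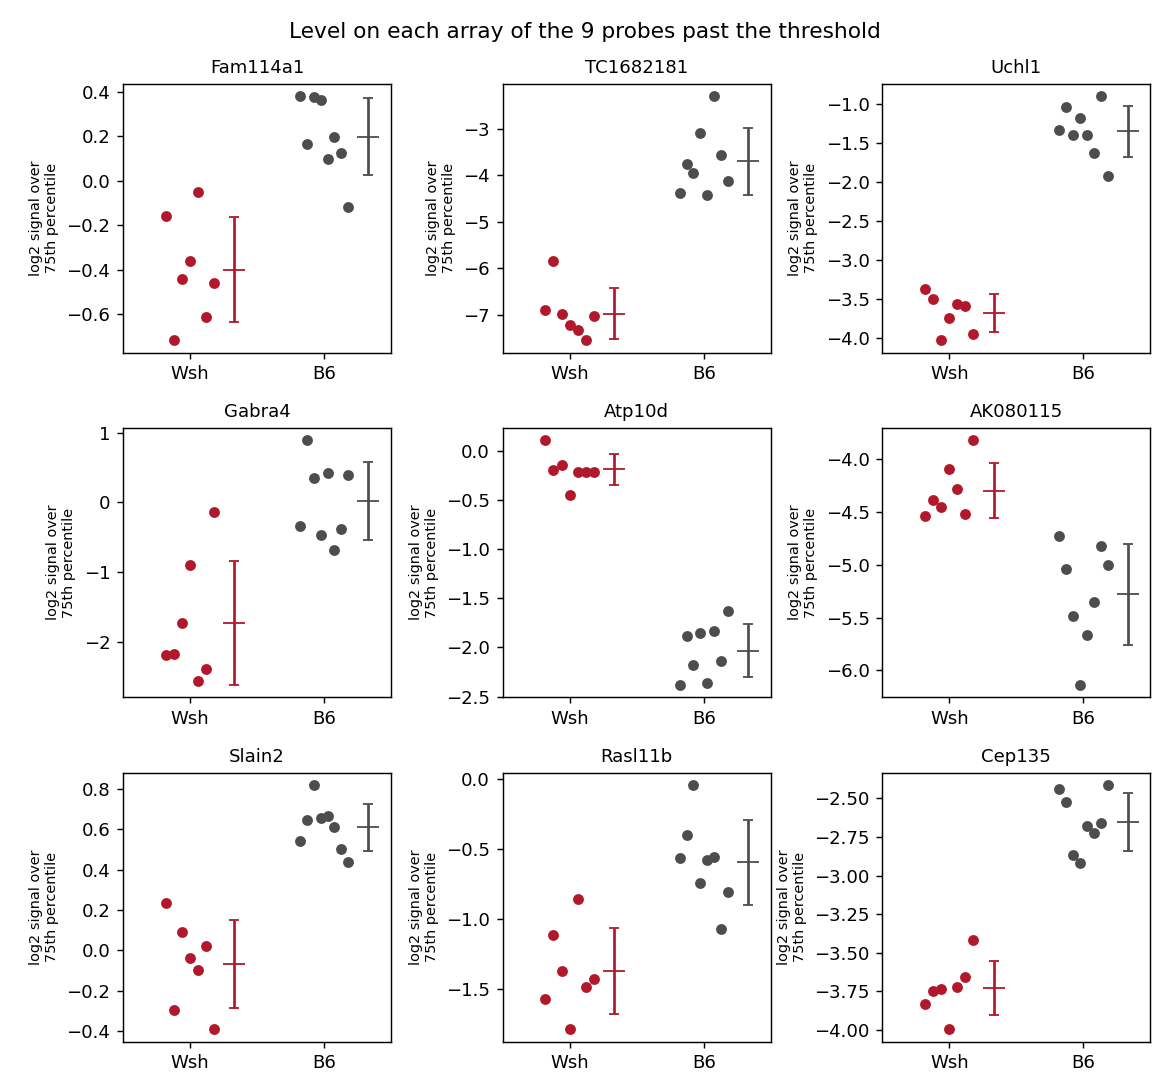
Log2 signal relative to the array's 75th percentile (y axis) of the 9 probes that passed, 1 point per array, 7 Wsh arrays at left and 8 B6 arrays at right, with the mean and SD of each group beside the points. There is no overlap for TC1682181, Uchl1, Atp10d, AK080115, Slain2 and Cep135, and they meet for Fam114a1, Gabra4 and Rasl11b.

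For 5 of the 9 genes a second probe was tested, so the 2 probes of a gene could be compared on the same arrays. On each array the level of the gene's highest probe was taken from that of each other tested probe, and these differences were compared between Wsh and B6 over all 11985 such pairs on the array. This comparison was chosen after the values were seen. In the window, 4 of 70 pairs in 47 genes passed (5.71%), against 0.209% of all pairs, and they were the pairs of Cep135, Atp10d, Fam114a1 and Slain2. At an unadjusted p under 0.05 there were 20 of the 70 pairs and 1325 of all. The probe that passed on its own was part of each of the 4 pairs, so both counts rest in part on the same values.

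For Cep135 the junction probe minus the other probe was -2.59, -2.24 and -1.83 in Wsh and -0.95, -0.78 and -0.44 in B6. The groups did not overlap, and they differed by -1.54 (SE 0.11, limma adjusted p = 2.12e-06). For Atp10d the probe farther from Corin minus the nearer one was -1.05, -0.72 and -0.39 in Wsh and 0.11, 0.64 and 1.01 in B6, below 0 on every Wsh array and above 0 on every B6 array. The difference was -1.32 (SE 0.13, limma adjusted p = 4.11e-05). For Fam114a1 the probe that did not pass minus the one that did was -2.20, -2.13 and -1.88 in Wsh and -3.73, -3.12 and -2.81 in B6. These groups did not overlap either, and the difference was 1.08 (SE 0.13, limma adjusted p = 0.000673). For Slain2 the same quantity was -2.27, -2.10 and -1.63 in Wsh and -3.56, -2.89 and -2.51 in B6, with a difference of 0.90 (SE 0.14, limma adjusted p = 0.0116). The 4 calls held whichever array was left out, with adjusted p up to 0.0372 for Slain2. The 2 probes of Gabra4 did not differ past the threshold (0.95, SE 0.28, limma adjusted p = 0.208). Among all 70 pairs, the 2 probes lay on opposite sides of 0 in 31 (44.3%), against 35.4% of all pairs on the array. For the 4 pairs that passed, a shift between transcript forms and a variant under 1 probe cannot be told apart from signals alone.

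**Figure D3:**
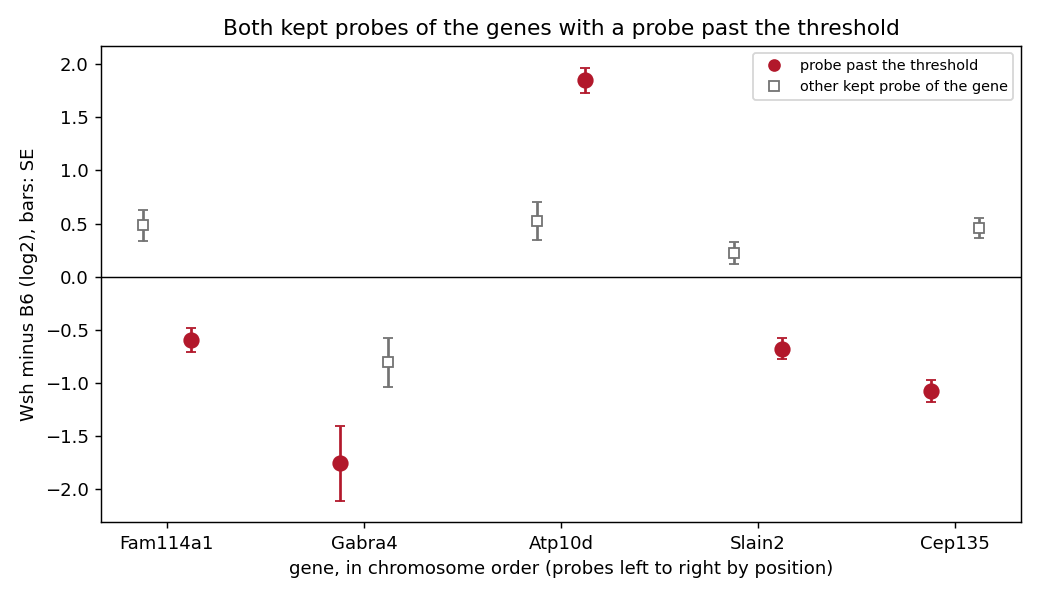
Wsh minus B6 difference (log2, y axis, with SE bars) of both tested probes of Fam114a1, Gabra4, Atp10d, Slain2 and Cep135 (x axis, in chromosome order). Filled circles passed and open squares did not; the 2 probes lie on opposite sides of 0 for Fam114a1, Slain2 and Cep135 and on the same side for Gabra4 and Atp10d.

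The calls differed in how far they rested on single arrays. TC1682181, Uchl1, Atp10d, Slain2 and Cep135 passed in all 15 fits that left out 1 array, with adjusted p up to 0.000247, 6.44e-06, 9.12e-06, 0.0168 and 0.000244. The other 4 probes did not. The set of tested probes was fixed on all 15 arrays before these fits. TC1682181 entered it through B6 alone, so its result here follows in part from the filter. Fam114a1 passed in 4 of the 15 (without Wsh replicate 1 or 5 or B6 replicate 7 or 8), Rasl11b in 2 (without Wsh replicate 5 or B6 replicate 7), AK080115 in 2 (without B6 replicate 1 or 7) and Gabra4 in 1. Without the 5 arrays with skeletal muscle transcripts, 3 probes passed, those of Uchl1 (-2.30, limma adjusted p = 0.00341), Atp10d (1.85, 0.00341) and Cep135 (-0.99, 0.0308), and the other 6 did not. Those 6 differences were -0.77 for Fam114a1, -3.02 for TC1682181, -1.67 for Gabra4, 0.92 for AK080115, -0.82 for Slain2 and -0.77 for Rasl11b. With slide as a block, the calls of Gabra4 (-1.76, limma adjusted p = 0.0690), AK080115 (0.99, 0.0552) and Rasl11b (-0.78, 0.0606) were lost and the other 6 held. Within slide 1, Uchl1 (-2.42, 0.00355) and Atp10d (1.91, 0.0178) passed. Within slide 2 no member passed in limma, with 28 at an unadjusted p under 0.05, against 3 and 2511 of all probes. There Uchl1 had -2.24, Atp10d 1.78, Cep135 -0.98, Slain2 -0.71 and TC1682181 -3.70. Every one of the 9 probes had the same sign on both slides, which follows in part from their choice on all 15 arrays.

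**Figure D4:**
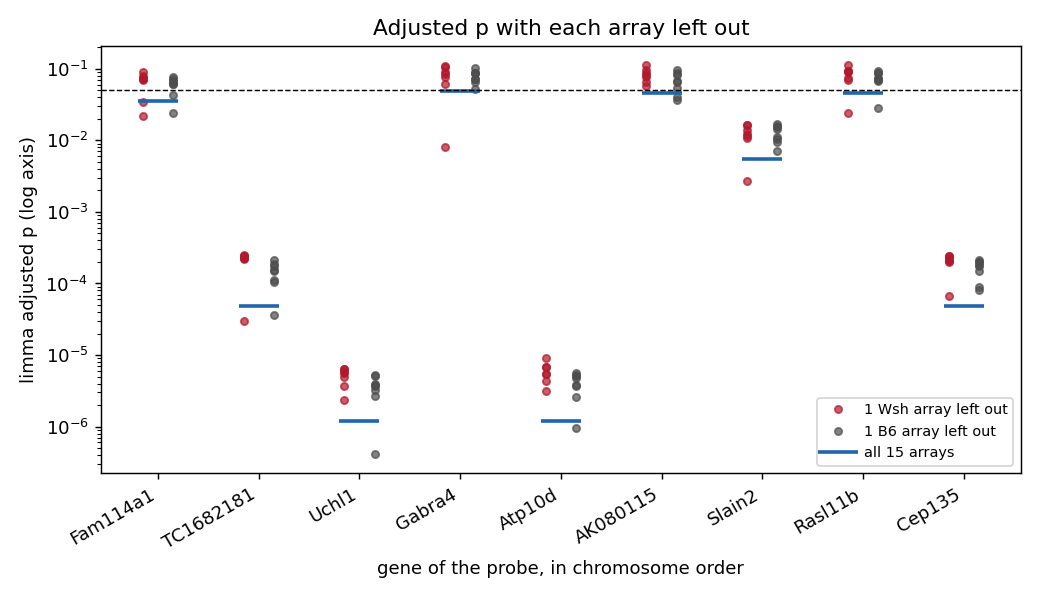
Limma adjusted p (log y axis) of the 9 probes that passed (x axis), with all 15 arrays (blue bar) and with each Wsh array (red points) or each B6 array (grey points) left out. The dashed line is the threshold of 0.05. The probes of TC1682181, Uchl1, Atp10d, Slain2 and Cep135 stay below it throughout, and those of Fam114a1, Gabra4, AK080115 and Rasl11b lie above it in most fits. TC1682181 entered the test through B6 alone.

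The strongest signals of the window came from genes whose probes did not differ past the threshold. Before Corin these were Rpl9, a protein of the large ribosomal subunit, the transcript ENSMUST00000197863 and 0610040J01Rik. Rpl9 had a level of 6.29 ± 0.11 in Wsh (SD, n = 7) and 6.24 ± 0.17 in B6 (SD, n = 8), a difference of 0.04 (SE 0.09), and -0.07 with its other probe. ENSMUST00000197863 had 0.01 and -0.09 with its 2 probes, and 0610040J01Rik had 0.04. Between Corin and Kit they were ENSMUST00000119247, at -0.04, Ociad1 and Fryl, which had 0.06, -0.03 and -0.03 with its 3 probes. Beyond Kit they were Noa1, a GTPase of mitochondria, at 0.16, 0.04 and 0.14, Igfbp7, a secreted binding protein for insulin-like growth factors, at -0.06, and Gm42102, at -0.62 (SE 0.52). Replicate spread limited what could be seen for Gm42102, whose level ran from 1.47 to 3.72 in Wsh and from 1.06 to 5.01 in B6.

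Several groups of genes with related roles lie side by side in the window. Ppat and Paics, which encode enzymes of early steps of purine synthesis, did not pass with any probe. Ppat had 0.08 and -0.09 with its 2 probes, and Paics had 0.26 (SE 0.09, limma adjusted p = 0.279) and -0.03 with 2 of its 3. Over the purine synthesis genes 11 of 11 were measured and 0 passed in limma in either direction (1 at an unadjusted p under 0.05), with a median of 0.04. Tec and Txk encode kinases of the TEC family, which act below antigen receptors of lymphocytes. Tec had -0.01 (SE 0.14) and Txk 0.91 (SE 0.59, limma adjusted p = 0.604). All 5 kinases of the family were measured, 4 lay above 0, and 0 passed in limma or had an unadjusted p under 0.05, with a median of 0.43.

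Among the tested genes were housekeeping and regulatory genes of other kinds, named here after their values were seen. Rfc1, a subunit of the clamp loader of DNA replication, had -0.08 (SE 0.09). Pds5a, a regulator of cohesin, had 0.14 and 0.15 with 2 probes that overlap by 19 bases. Rest, the repressor of neuronal genes, had -0.06, -0.20 and -0.09. Polr2b, a subunit of RNA polymerase II, had -0.21 (SE 0.08, limma adjusted p = 0.324). Several genes had probes on 1 side of 0 without passing. Ugdh, which makes the sugar donor for glycosaminoglycans, had 0.41 (SE 0.09, limma adjusted p = 0.0898) and 0.34, N4bp2 had 0.51 (adjusted p = 0.114) and 0.47, and the transcription factor gene Klf3 had 0.39, 0.50 (adjusted p = 0.103) and 0.13.

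The replicate SD, pooled over both groups, had a median of 0.26 over the 174 probes, against 0.30 over all tested probes. The highest were 2.19 for Klb, 1.76 for a probe of Lnx1, and 1.23 for Txk. The Klb probe was well above background on 5 Wsh and 6 B6 arrays, and that of Lnx1 on 4 and 4. Their spread thus includes values not well above background. A second Klb probe was well above background on 2 Wsh and 0 B6 arrays and was not tested. Klb encodes beta-Klotho, the coreceptor of FGF21 in fat and liver. Its level was -5.72, -2.67 and -0.26 in Wsh and -7.10, -4.93 and -0.52 in B6, a spread within each group wider than the difference of 0.76 (SE 1.04, limma adjusted p = 0.841). For Lnx1 the spread came from Wsh replicate 7, at 0.98, while the median was -5.32 in Wsh and -5.01 in B6. Another Lnx1 probe had -0.91 on that array, close to its other Wsh values. Rhoh, a GTPase of blood cells, had -1.03, 0.36 and 2.02 in Wsh and -1.60, -0.39 and 0.78 in B6, with a difference of 0.66 (SE 0.47, limma adjusted p = 0.648). Txk had -3.90, -2.56 and -0.42 in Wsh and -4.94, -3.21 and -1.64 in B6.

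The levels of Klb, Rhoh and Txk went with marker genes of other cell types. Over the 15 arrays, the level of Klb was higher where the mean of 14 adipocyte markers was higher (Pearson's r = 0.928, Spearman's rho = 0.914). That of Rhoh went with the mean of 12 T cell markers (r = 0.958, rho = 0.979), and that of Txk with the same mean (r = 0.943, rho = 0.954). Each of the 3 relations had a two-sided permutation p = 1.0e-05 for r and for rho, the smallest that 100000 resamples can give, and 1.0e-05 after Benjamini-Hochberg adjustment over the 3. The 3 relations were chosen after the values were seen, and the adjustment over the 3 does not cover that choice. That of Klb includes arrays on which its probe was not well above background. Without the 2 arrays farthest from the median of the list mean, r was 0.963, 0.942 and 0.912. On slides 1 and 2 r was 0.908 and 0.983 for Klb, 0.938 and 0.988 for Rhoh, and 0.959 and 0.943 for Txk. Within Wsh and within B6 r was 0.994 and 0.917 for Klb, 0.972 and 0.938 for Rhoh, and 0.965 and 0.915 for Txk. The T cell list mean ran from -1.39 to 1.96 in Wsh and from -1.36 to 1.16 in B6, and 11 of its 12 members lay above 0, with no call. The B and plasma cell list mean ran from -2.12 to 3.04 in Wsh and from -2.45 to 1.83 in B6. Both means were highest on Wsh replicates 1 and 6 and B6 replicate 7. The relation of the B and plasma cell mean to Rhoh and Txk was not computed, so their relations cannot be taken as particular to T cells. The adipocyte list mean ran from -0.85 to 1.80 in Wsh and from -3.62 to 2.05 in B6, and 13 of its 14 members lay above 0, again with no call. In whole tumours, more cells of a type and more RNA per cell cannot be told apart.

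**Figure D5:**
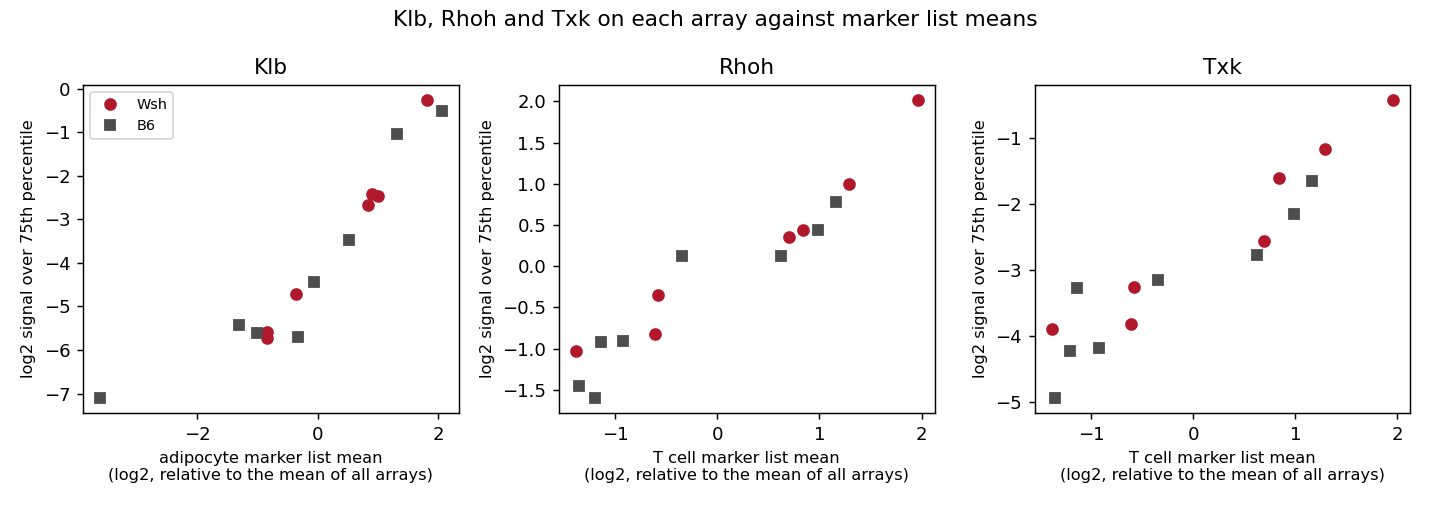
Log2 signal relative to the array's 75th percentile (y axis) of Klb, Rhoh and Txk on each of 15 arrays against the mean of the adipocyte (Klb) or T cell (Rhoh, Txk) marker list (x axis, log2, relative to the mean of all arrays). Red circles are Wsh and grey squares B6 arrays; both groups lie along 1 rising line in each panel.

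Many members gave no signal in these tumours. Gsx2, a homeobox gene of the forebrain, Zar1, an oocyte gene, Grxcr1, a gene of inner ear hair cells, Nmu, which encodes the peptide neuromedin U, and Pdcl2, a germ cell gene, were not well above background on any array. A few untested probes were well above background more often in 1 group. A probe of Nipal1 was so on 1 of 7 Wsh arrays and 5 of 8 B6 arrays, and a probe of Lnx1 on 1 Wsh and 4 B6 arrays. Probes of Yipf7 and Cnga1 were so on 3 Wsh arrays and no B6 array each. These numbers were not tested.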

How the data were processed

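Total RNA of 15 tumours was converted to Cy3-labelled cRNA and read on 1-colour Agilent arrays, per the labels. The authors deposited scanner intensities read with Agilent Feature Extraction 10.7.3.1, per the file headers, in which the processed intensity is background-subtracted and detrended but not normalized between arrays. A second deposited file holds log2 values from these arrays. Its normalization and centring were not stated in the labels or headers, and it served as an alternative. The submitters' processing notes also name limma.

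Samples were grouped by the background in the labels. Spots marked as outliers were dropped, repeated spots of a probe averaged, and log2 of the processed intensity taken minus each array's 75th percentile. Of 56605 probes, 34349 passed the filter (well above background on 7 or more of 15 arrays) and were tested in R 4.3.3 with the two-sided moderated test of limma 3.58.1 and Benjamini-Hochberg adjustment, at adjusted p 0.05. Pairs of probes of 1 gene were tested the same way. The number of arrays limits the precision. No arrays were identical, and they correlated between 0.926 and 0.988. Nothing says that the tumours were from separate mice, so p-values reflect the variation among these samples alone.

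Named genes were those with a probe past the threshold, Corin, the 3 nearest genes on each side of Corin and of Kit, the 3 of highest signal in each stretch without a call, and list members in the window. Other genes of the window, and Dbp, were named after their values were seen, also where this is not marked. Values of some single genes are not reported here. Lists were of GABA-A receptor subunits, flippases, clock genes, ubiquitin hydrolases, TEC kinases, purine synthesis genes and markers of muscle, adipocytes, B, T and mast cells, nerve, endothelium and epithelium. Members and lists were chosen with earlier results of these data known. Of the remaining marker lists, B and plasma cell markers had 10 of 11 measured above 0 and 0 past the threshold, and endothelial ones 4 of 10 and 0. Replicate numbers did not pair the samples (correlations of deviations between -0.231 and 0.211). Alternatives were normexp correction (offset 50), quantile normalization, median scaling, other filters, 1 probe per gene, slide or replicate number as a block, each slide alone, trend and robust options, muscle and adipocyte covariates, no muscle arrays, the deposited log2 values, and leaving out 1 array at a time. Steps were tested on simulated data. Figures were drawn with matplotlib 3.10.9.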

Additional observations from a re-analysis of the deposited data

Results flagged for a closer look

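Of 118 groups of arrays tested over the probes of the named genes, 9 had 1 array far from the others, by the gap to its neighbour relative to the range of the group, and chance alone marks about 1 in 20 groups. TC1682181 had -5.84 in Wsh replicate 2, above the next Wsh value of -6.89, all of them not well above background. Cnga1 had -1.31 in Wsh replicate 2, above the next value of -1.66. Igfbp7 had 5.39 in Wsh replicate 1, above the next value of 4.82. The probe of 0610040J01Rik was low on 1 array of each group, at 2.96 in Wsh replicate 1 (next value 3.72) and 2.63 in B6 replicate 7 (next value 3.43). Commd8 had 0.65 in B6 replicate 1, below the next value of 1.17. Nfxl1 had -3.11 in B6 replicate 4, below the next value of -2.70. Fryl had 2.97 in B6 replicate 3, above the next value of 2.14. Noa1 had 5.64 in B6 replicate 8, below the next value of 6.16.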

How the results depend on the processing

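The count of 9 member probes past the threshold became 5 without a filter on dim probes, 2 on slide 1 alone, 0 on slide 2 alone (limma, with 28 members at an unadjusted p under 0.05), 4 with the replicate block, although no Wsh array correlated best with the B6 array of its own number, and 3 without the arrays with skeletal muscle. It was between 5 and 9 with each array left out, and between 6 and 13 in the other settings, with 6 when slide was a block, which lost Gabra4, AK080115 and Rasl11b (79 probes of the whole array, against 114) and 13 with muscle and adipocyte covariates (202 of the whole array). The whole-array count was 49 without the filter, 10 on slide 1, 3 on slide 2 (2511 at an unadjusted p under 0.05), 28 with the replicate block and 34 without the muscle arrays. The count of 4 pairs became 2 on slide 1 alone, 0 on slide 2 alone (14 member pairs at an unadjusted p under 0.05), 2 without the muscle arrays and 3 with the replicate block, was 4 or 5 with each array left out, and stayed at 4 in the other settings. Over all pairs the count of 25 became 5 on slide 1 and 0 on slide 2 (953 at an unadjusted p under 0.05). It was 10 without the muscle arrays and 12 with the replicate block. The slide and muscle settings use fewer arrays and the setting without a filter tests more probes. Otherwise the cause was not tested. None of the 9 probes or 4 pairs changed sign in any setting, which follows in part from their choice on the same arrays. Their sizes depended on the background step for dim probes, TC1682181 having -1.60 after normexp and -1.90 in the deposited table. Of 50 named probes that did not pass, 27 changed sign in at least 1 of 29 settings and 2 passed in 1 setting, a Cep135 probe with the filter on all arrays (adjusted p = 0.0461) and an Nfxl1 probe with the covariates (0.0427). Dim signal limits what can be said of the 93 genes without a tested probe.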

Other observations

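Other probes of the window passed only in some settings. Tbc1d1, a gene for a GTPase-activating protein that acts in glucose uptake by muscle, had 0.99 (SE 0.19, limma adjusted p = 0.0350) with muscle and adipocyte covariates, against 0.99 (SE 0.33, limma adjusted p = 0.264) without them, and its other 2 probes had 0.21 and 0.03. Both N4bp2 probes passed with the same covariates, at 0.64 (adjusted p = 0.0453) and 0.68 (adjusted p = 0.0313). A lincRNA between Ociad2 and Cwh43, with its probe at 73772603, had -1.07 (SE 0.24, limma adjusted p = 0.0864) and passed without B6 replicate 7 (-1.19, adjusted p = 0.0436). The 2 probes of 9130230L23Rik, which lie before TC1682181, had -0.57 and -0.60, and 2310040G07Rik beyond Kit had -0.96 (limma adjusted p = 0.288). These genes were named after their values were seen.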
